A study of Homo sapiens with 4 samples.

Results

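Immediate early genes are transcribed within minutes of a growth factor, a mechanical stimulus or a stress, without new protein synthesis. A list of 46 of them was followed here among the 38137 genes counted in A549 xenografts: AP-1, EGR, KLF and NR4A transcription factors, dual phosphatases, and feedback genes, found by their gene symbol in each file. All 46 were present, and 44 passed a minimum mean of 20 reads over the libraries. DUSP2 and ARC had too few reads to be compared. A549, a human NSCLC cell line, was grown as flank tumors in male BALB/c athymic nude mice, which lack mature T cells and keep myeloid and natural killer cells. The 4 groups were the combination of aerobic exercise and radiation, radiation alone, aerobic exercise alone, and an untreated control. The animals ran on a treadmill for 30 min at 8.0 m/min, the tumors received 2 Gy, and both were given 3 times per week for 2 weeks, the run preceding the irradiation on a shared day. Mice were 6 weeks old and numbered 5 per group, and each group is represented by 1 library. Whether a library holds 1 tumor or several, and how long after the last session it was taken, is not given in the sources used here.

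Because there is 1 library per group, differences are ratios of CPM (reads of a gene scaled to a common library total, with TMM factors) with no p-value. Intervals are exact at 95% and cover counting error only, so the spread between tumors is not in them. The libraries held 33432637 assigned reads in the combination, 35408705 with radiation alone, 34304760 with exercise alone and 34602535 in control. All 11 marker genes of the A549 line were read in every library, with summed levels of 15572 to 17033 CPM. Genes of host tissue were read at lower sums: 85.7 CPM in the combination, 85.4 CPM with radiation alone, 42.3 CPM with exercise alone and 43.2 CPM in control for 15 skeletal muscle genes, and 0.546 to 0.728 CPM over all libraries for 6 erythroid genes. Reads were matched to human genes only, so tumor and host cells cannot be told apart as the source of a read, and fewer cells of a type cannot be told apart from less RNA per cell.

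The first wave of this response runs through a few circuits. ERK phosphorylates ternary complex factors bound with SRF at CArG boxes, as in the promoters of FOS and EGR1. CREB and ATF proteins act at cyclic AMP response elements (CRE), as in NR4A and DUSP1. FOS and JUN proteins pair into AP-1, which drives the next set of genes. DUSP, ZFP36, NFKBIA, TNFAIP3 and SOCS3 then shut the response down: the first removes phosphate from MAP kinases, ZFP36 marks AU-rich mRNAs for decay, and the others restrain NF-kappaB and STAT signaling. In lung epithelium and its tumors these genes answer to EGF ligands, stretch, oxidants and ionizing radiation, and because the mRNAs are short-lived their level reflects the hours, or less, before sampling.

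Promoter sequence was available from RefSeq for 35 of the 46 genes, in 47 windows of 250 bases before a start site (GRCh38.p14). FOSL1, EGR3, KLF10, NR4A2, IER3, DUSP5, CCN1, MYC, TRIB1, ARC and GEM had no entry. The 3 windows below belong to genes that were at least 2-fold higher in a treated library and hold a CArG box or a CRE, which are in capitals. They are shown with their gene strand, from 5′ to 3′.
EGR1, chr5:138465229-138465478, plus strand: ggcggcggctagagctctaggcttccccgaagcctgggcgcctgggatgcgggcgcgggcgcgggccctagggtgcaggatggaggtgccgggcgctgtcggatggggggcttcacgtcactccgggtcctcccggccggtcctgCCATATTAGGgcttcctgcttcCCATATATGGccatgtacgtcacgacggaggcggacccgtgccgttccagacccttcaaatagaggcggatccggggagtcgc
DUSP1, chr5:172771196-172771445, minus strand: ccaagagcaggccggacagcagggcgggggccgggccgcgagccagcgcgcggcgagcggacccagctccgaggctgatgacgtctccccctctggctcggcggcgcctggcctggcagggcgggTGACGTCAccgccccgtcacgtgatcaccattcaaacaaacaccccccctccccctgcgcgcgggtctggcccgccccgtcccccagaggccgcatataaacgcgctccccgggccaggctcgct
EGR2, chr10:62816367-62816616, minus strand, the most downstream of its 3 starts: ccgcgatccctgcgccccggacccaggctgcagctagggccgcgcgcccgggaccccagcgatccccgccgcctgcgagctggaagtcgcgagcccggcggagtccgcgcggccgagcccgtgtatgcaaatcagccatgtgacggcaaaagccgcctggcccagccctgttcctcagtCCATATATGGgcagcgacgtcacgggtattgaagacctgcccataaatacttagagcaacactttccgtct

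The EGR1 window holds 2 CArG boxes, from 105 to 96 and from 83 to 74 bases before the start. The EGR2 window holds 1, from 71 to 62 bases before it, and the DUSP1 window holds 1 full CRE, from 125 to 118 bases before it. SRF, which was not 2-fold different in any comparison, is shown beside them because its own promoter has 2 CArG boxes within 30 bases of the start; it was added after its values had been seen.
SRF, chr6:43171209-43171268, plus strand, the last 60 bases: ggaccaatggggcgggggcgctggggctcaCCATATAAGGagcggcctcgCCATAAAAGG

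Over both strands, a CArG box lay in 6.38% of the 47 member windows against 1.16% of all 35116 RefSeq windows of this length, and a CRE (TGACGTCA) in 8.51% against 1.65%. The CArG boxes were those of EGR1, EGR2 and SRF. The windows of FOS, FOSB, ATF3, ZFP36, IER5 and NR4A1, also at least 2-fold higher in a treated library, held neither a CArG box nor a full CRE. The core of the CRE (TGACG), which every full CRE contains, lay in 44.7% against 21.2%, and a TATA box (TATAAA) in 27.7% against 10.7%. An EGR site (GCGNGGGCG, which can overlap an SP1 site) lay in 19.1% against 8.41%, a kappaB site in 21.3% against 9.96%, an SP1 site (GGGCGG) in 63.8% against 42.6% and a TEAD site (GGAATG) in 12.8% against 11.9%. The ETS motif (CCGGAAG) lay in 2.13% against 8.52%, and the AP-1 motif (TGANTCA) in 0 of the 47 member windows against 6.57%. Counted by gene, a CArG box lay in 8.57% of the 35 members against 1.36% of the compared genes with a window, a CRE in 11.4% against 2.90%, an EGR site in 25.7% against 15.3% and an SP1 site in 77.1% against 65.8%. These are matches of letters in a short window, not sites shown to be bound. The genes were compact. Their median span was 5244 bases (1222 to 148857), and 34 of 46 spanned less than 10000 bases, while the median over 18351 compared genes with coordinates was 27137 bases.

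Both exercised libraries had more immediate early mRNA than their sedentary partners. In the combination against radiation alone, 42 of 44 genes had a log2 ratio above 0, where 50.2% of all 19393 genes compared did, and the median was 0.44 against 0.001 over all genes. With exercise alone against control, 41 of 44 did, against 50.4% of all genes, with a median of 0.30 against 0.002. The sign alone was not particular to this list. In the first pair 23 of 25 p53 targets and 10 of 11 A549 line genes also lay above 0, with smaller medians (0.11 each). In the second, 17 and 6 did. Of 10 fibroblast genes compared, 2 lay above 0 in the first pair and 5 in the second. The 2-fold threshold was passed upward by 2 genes in the combination against radiation alone, EGR2 and FOSB, and by 6 with exercise alone against control: EGR1, FOSB, FOS, DUSP1, EGR3 and NR4A1. That is 4.55% and 13.6% of the list, where 0.418% and 0.83% of all genes passed. With 0.1 added to the FPKM, EGR2 in the first pair (0.66) and EGR3 (0.78) and NR4A1 (0.97) in the second were under 2-fold. The FPKM themselves were 0.209 and 0.095 for EGR2, 0.31 and 0.139 for EGR3 and 3.047 and 1.507 for NR4A1, each over 2-fold apart. Counting intervals lay above 1 in both exercised libraries for 31 of the 44 genes. This was not counted over all genes, and with many reads such an interval leaves 1 at a small fold. FOSL2 did so at 1.06-fold (1.02 to 1.09) in the combination against radiation alone.

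Fewer members were higher with radiation. With radiation alone against control, 24 of 44 genes lay above 0, against 50.1% of all genes. The median was 0.064 against 0.001 over all genes, and -0.0069 against -0.0705 when scaled by total counts. EGR1, FOSB and FOS were at least 2-fold higher, 6.82% of the list, where 1.89% of all genes passed. The counting interval lay above 1 for 19 genes and below 1 for 12. This was not counted over all genes, so no trait of the list is read from it. In the combination against exercise alone, 29 of 44 lay above 0, against 47.8% of all genes, with a median of 0.14 against -0.016, and IER5 was the one gene at least 2-fold higher (2.27% of the list, where 2.92% of all genes passed).

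In the combination against control, 36 of 44 genes lay above 0, against 47.9% of all genes, with a median of 0.46 against -0.015. FOSB, EGR1, FOS, DUSP1, ATF3, ZFP36, IER5 and EGR2 were at least 2-fold higher, 18.2% of the list, where 2.27% of all genes passed. EGR2 fell short of 2-fold here when scaled by total counts (0.98). With 0.1 added to the FPKM, EGR2 (0.59) and IER5 (0.99) did so. The FPKM themselves, in the combination and in control, were 0.209 and 0.105 for EGR2 and 14.931 and 7.443 for IER5. No member was at least 2-fold lower in any of the 5 comparisons, where 1.75% of all genes were for the combination over control, 0.861% for the combination over radiation alone, 3.06% for the combination over exercise alone, 0.897% for radiation alone over control and 0.696% for exercise alone over control. At a threshold of 1.5-fold, 17 members were higher and 0 lower in the combination than in control, where 6.14% and 6.52% of all genes were. Against radiation alone, 11 members were higher and 0 lower (2.31% and 4.24% of all genes), and against exercise alone 8 were higher and 1, TNFAIP3, lower (7.66% and 8.32%). For radiation alone over control, 8 members were higher and 0 lower (5.81% and 4.35%), and for exercise alone over control 12 and 0 (3.85% and 3.21%). These comparisons share libraries, so their counts are not independent of each other.

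**Figure D1:**
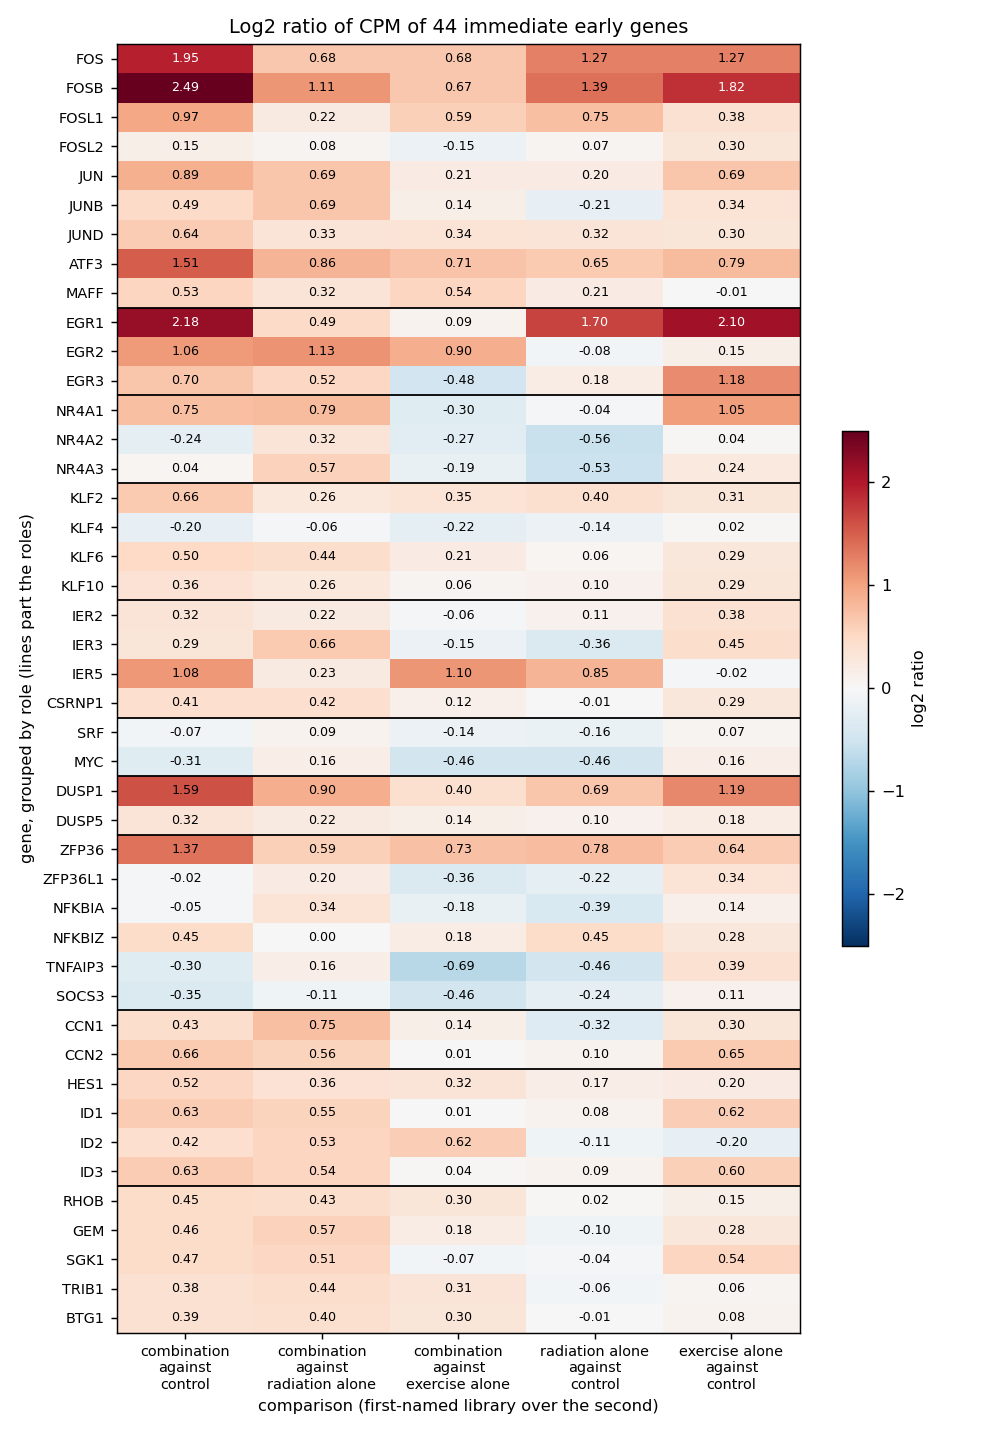
Log2 ratio of CPM (colour and printed value) of the 44 immediate early genes compared (rows, parted by role) in the 5 comparisons (columns, first-named library over the second). FOSB, EGR1 and FOS have the highest ratios of the combination against control, at 2.49, 2.18 and 1.95, and the combination against radiation column is above 0 in 42 of 44 rows.

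For 29 of the 44 genes the highest CPM was in the combination, and for 15 it was with exercise alone. Of all genes compared, 27.6% and 29.6% had their highest CPM there. The radiation-alone and control libraries held the highest CPM of 0 genes, although they did so for 22.3% and 20.5% of all genes compared. The lowest CPM was in control for 22 genes and with radiation alone for 17, where it was for 19.9% and 23.2% of all genes compared. When scaled by total counts, radiation alone and control each held the highest CPM of 1 gene, the combination of 25 and exercise alone of 17.

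**Figure D2:**
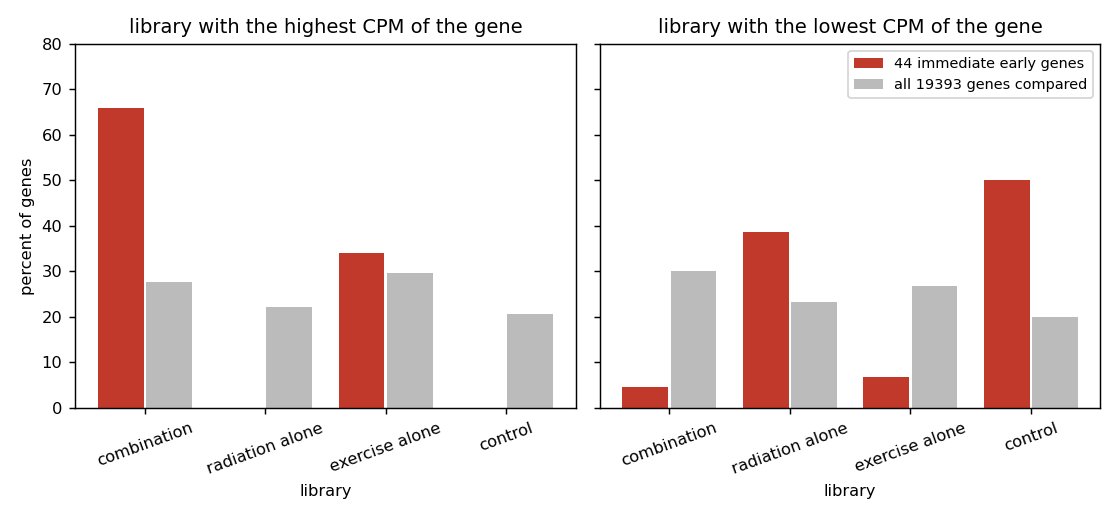
Percent of genes (y axis) whose highest (left panel) or lowest (right panel) CPM was in each of the 4 libraries (x axis), for the 44 immediate early genes (red) and all 19393 genes compared (grey). None of the 44 has its highest CPM with radiation alone or in control, and 22 have their lowest in control.

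Among AP-1 and related bZIP genes, all 9 were higher in the combination than in control, with a median log2 ratio of 0.89. FOS, the prototype of the class and a partner of JUN (RefSeq on GRCh38.p14, chr14:75278828-75282230), was read at 231 CPM in the combination, 144 CPM with radiation alone, 144 CPM with exercise alone and 59.8 CPM in control. Both single treatments stood at one level, with the combination above them and control below. FOS was 3.85-fold higher in the combination than in control (3.67 to 4.05), and 2.41-fold higher with radiation alone (2.29 to 2.54). With exercise alone it was 2.41-fold higher than in control (2.29 to 2.53). FOSB, a paralog of FOS (chr19:45467996-45475179), was read at 31.1 CPM in the combination, 14.4 CPM with radiation alone, 19.5 CPM with exercise alone and 5.52 CPM in control. All 3 treated libraries were well above control, and FOSB was 5.64-fold higher in the combination (4.84 to 6.60), the widest ratio of any member between these libraries. Between the irradiated libraries FOSB was 2.16-fold higher in the combination (1.94 to 2.40).

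ATF3, a stress-induced bZIP factor that p53 and ATF4 can also induce (chr1:212565407-212620777), was read at 44.5 CPM in the combination, 24.6 CPM with radiation alone, 27.2 CPM with exercise alone and 15.7 CPM in control. It kept the order of FOSB and was 2.84-fold higher in the combination than in control (2.58 to 3.14). With 0.1 added to its FPKM of 0.788 and 0.292, its log2 ratio in this comparison was 1.18, against 1.51 from counts. JUN, the main partner of FOS, was read at 181 CPM in the combination, 112 CPM with radiation alone, 157 CPM with exercise alone and 97.2 CPM in control. JUN followed exercise in both pairs, with a log2 ratio of 0.69 in each, and radiation less, with 0.21 in the combination against exercise alone and 0.20 with radiation alone. JUNB, which tempers JUN, had log2 ratios of 0.69 in the combination against radiation alone and 0.34 with exercise alone against control. FOSL1 (FRA1), an AP-1 subunit of later onset, moved more with radiation, at 0.59 in the combination against exercise alone and 0.75 with radiation alone. JUND lay between 0.30 and 0.34 in these 4 pairs, and MAFF, a small MAF protein, at -0.01 with exercise alone and 0.53 in the combination against control. FOSL2 (FRA2), which had the most reads of this role, was read at 198 CPM in the combination, 188 CPM with radiation alone, 219 CPM with exercise alone and 179 CPM in control. Its libraries lay close together, with log2 ratios from -0.15 to 0.30 in these 4 pairs.

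EGR1, a zinc finger factor of growth and stress responses (chr5:138465479-138469303, downstream of the window shown above), was read at 29.1 CPM in the combination, 20.8 CPM with radiation alone, 27.4 CPM with exercise alone and 6.39 CPM in control. All 3 treated libraries were above control, which had 228 reads, and the combination was 1.40-fold above radiation alone (1.27 to 1.54). EGR1 was 4.55-fold higher in the combination (3.94 to 5.28), 3.25-fold higher with radiation alone (2.80 to 3.79) and 4.29-fold higher with exercise alone (3.71 to 4.98). The combination and exercise alone were not separated by counting error (1.06-fold, 0.969 to 1.16). EGR2 was sparse, with 50 reads in the combination, 24 with radiation alone, 28 with exercise alone and 26 in control. The combination was the highest of the 4, 2.10-fold above control (1.28 to 3.51) and 2.21-fold above radiation alone (1.33 to 3.76). EGR3, also sparse, had 42 reads in the combination, 31 with radiation alone, 62 with exercise alone and 28 in control, and exercise alone was 2.29-fold above control (1.44 to 3.71).

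**Figure D3:**
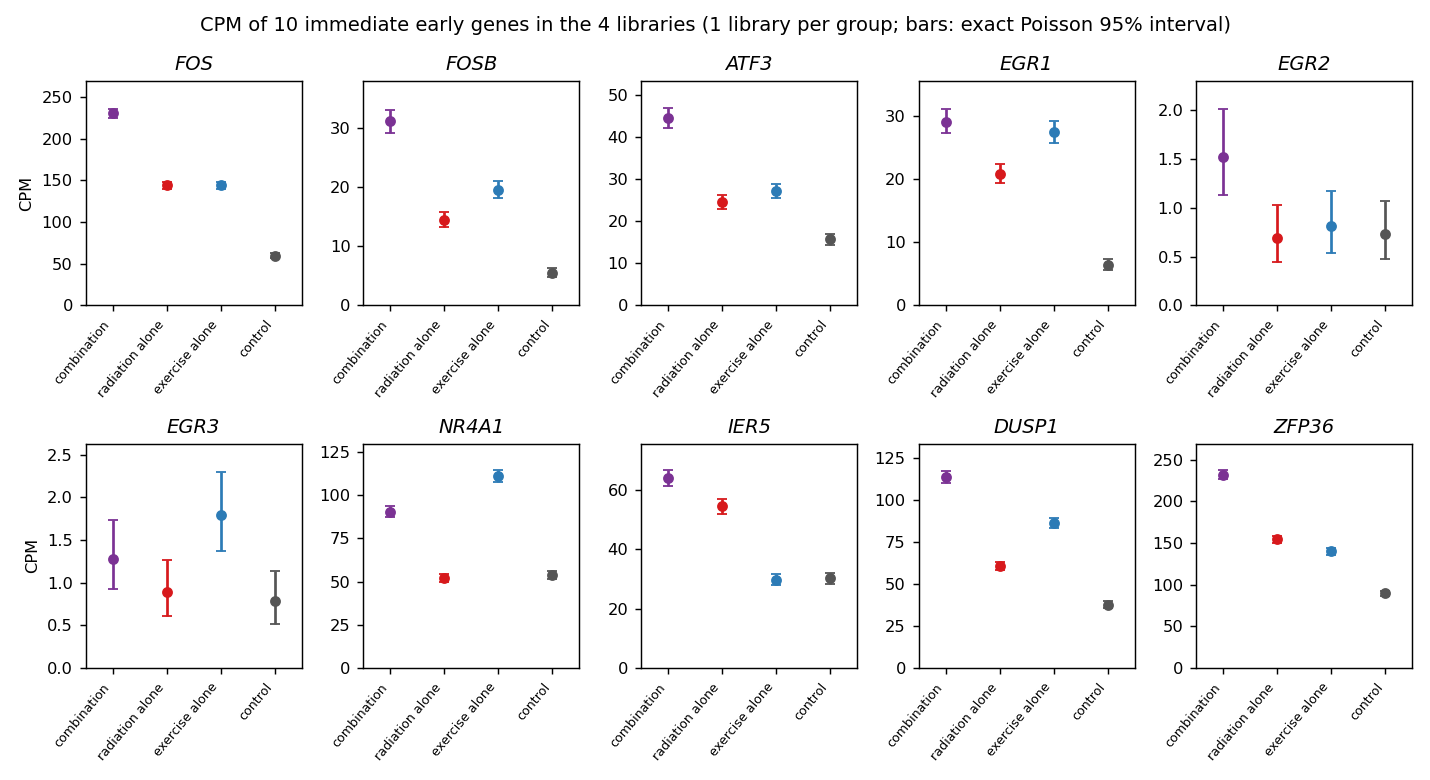
CPM (y axis, from 0, a separate scale in each panel) in the combination, radiation-alone, exercise-alone and control libraries (x axis) for the 10 members at least 2-fold different in a comparison. Points are single libraries and bars exact Poisson 95% intervals; FOS, FOSB and ATF3 are highest in the combination and lowest in control, and IER5 is high in the 2 irradiated libraries (64.0 and 54.5 CPM).

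The NR4A genes code for orphan nuclear receptors that are induced by cyclic AMP and calcium signals, in muscle also by exercise. NR4A1 (chr12:52022832-52059503) was read at 90.2 CPM in the combination, 52.0 CPM with radiation alone, 111 CPM with exercise alone and 53.6 CPM in control. The exercised libraries were high and the sedentary ones low, whether irradiated or not. NR4A1 was 2.07-fold higher with exercise alone than in control (1.96 to 2.19) and 1.73-fold higher in the combination than in the radiation-alone library (1.63 to 1.84), while radiation alone against control was 0.971-fold (0.911 to 1.04). The antisense gene NR4A1AS, which overlaps it, moved with it, with 689 reads in the combination, 383 with radiation alone, 834 with exercise alone and 516 in control. The strand setting of the counting is not given, so reads of the pair cannot be told apart. NR4A2 and NR4A3 had log2 ratios of -0.56 and -0.53 with radiation alone against control, and of 0.32 and 0.57 in the combination against radiation alone.

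KLF factors link shear stress and growth signals to cell identity. KLF6 had the most reads of the 4, with 172 CPM in the combination, 127 CPM with radiation alone, 149 CPM with exercise alone and 121 CPM in control, so that both exercised libraries were above both sedentary ones. KLF2 was highest of the role in the combination against control, at a log2 ratio of 0.66, and KLF10, a TGF-beta early response gene, lay at 0.36. KLF4, which is also a p53 target, was lowest, at -0.20.

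IER5, a target of p53 and of the heat shock factor HSF1 (chr1:181088700-181092900), was read at 64.0 CPM in the combination, 54.5 CPM with radiation alone, 29.8 CPM with exercise alone and 30.3 CPM in control. The irradiated libraries were high and the others were level. IER5 was 2.15-fold higher in the combination than with exercise alone (1.99 to 2.31) and 1.80-fold higher with radiation alone than in control (1.67 to 1.94), against 0.985-fold for exercise alone (0.903 to 1.07). IER3, an anti-apoptotic early gene, was higher with exercise and lower with radiation in every pair, with 107 CPM in the combination, 68.0 CPM with radiation alone, 119 CPM with exercise alone and 87.3 CPM in control. Its antisense gene IER3-AS1 held 28.6% as many reads as IER3 in the combination, 29.9% with radiation alone, 29.8% with exercise alone and 31.5% in control, and here too the pair cannot be told apart. The length implied by the deposited FPKM was 6 times the gene span for IER3 and 2 times for ID3. It was within 2% of the span for 38 of the 40 members whose FPKM was high enough in any library for the check. FPKM of IER3 and ID3 are therefore not set beside those of other genes. IER2 and CSRNP1 had log2 ratios of 0.38 and 0.29 with exercise alone and of 0.22 and 0.42 in the combination against radiation alone.

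SRF, the factor that binds CArG boxes, was read at 28.8 CPM in the combination, 27.1 CPM with radiation alone, 31.8 CPM with exercise alone and 30.3 CPM in control, and its log2 ratios lay between -0.16 and 0.09. MYC, a driver of cell growth, was read at 79.1 CPM in the combination, 70.9 CPM with radiation alone, 109 CPM with exercise alone and 97.9 CPM in control. MYC was lower in both irradiated libraries, at a log2 ratio of -0.46 in the combination against exercise alone and with radiation alone against control, and 0.16 higher with exercise in both pairs.

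DUSP1 (MKP-1), the phosphatase that inactivates p38, JNK and ERK (chr5:172768096-172771195), was read at 114 CPM in the combination, 60.8 CPM with radiation alone, 86.4 CPM with exercise alone and 37.8 CPM in control, each treatment above control and the combination highest. DUSP1 was 3.01-fold higher in the combination than in control (2.83 to 3.21) and 2.29-fold higher with exercise alone (2.15 to 2.44). Between the combination and radiation alone it was 1.87-fold (1.77 to 1.97). DUSP5, a nuclear ERK phosphatase, lay between 0.10 and 0.32 on the log2 scale. DUSP2 had 3 reads in the combination, 0 with radiation alone, 4 with exercise alone and 1 in control.

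Of the genes that end the response, ZFP36 (tristetraprolin), which destabilizes FOS and cytokine mRNAs, was read at 232 CPM in the combination, 154 CPM with radiation alone, 139.9 CPM with exercise alone and 89.9 CPM in control. It had the order of FOS, and was 2.58-fold higher in the combination than in control (2.47 to 2.69). Its relative ZFP36L1 had the most reads of this role and was highest with exercise alone, with 321 CPM in the combination, 280.0 CPM with radiation alone, 413 CPM with exercise alone and 327 CPM in control. TNFAIP3 (A20), an inhibitor of NF-kappaB, was read at 53.5 CPM in the combination, 48.0 CPM with radiation alone, 86.1 CPM with exercise alone and 65.8 CPM in control, its log2 ratio of -0.69 in the combination against exercise alone being the lowest of any member there. NFKBIA had -0.39 with radiation alone and 0.14 with exercise alone, SOCS3 -0.24 and 0.11, while NFKBIZ, with 0.45 and 0.28, had the order of ZFP36.

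The secreted matrix proteins CCN1 and CCN2, which YAP-TEAD and SRF can both induce, followed exercise. CCN2 was read at 114 CPM in the combination, 76.9 CPM with radiation alone, 113 CPM with exercise alone and 71.9 CPM in control, so that both exercised libraries stood at one level and both sedentary ones at a lower one. CCN1 had log2 ratios of 0.75 in the combination against radiation alone and 0.30 with exercise alone.

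The ID proteins, which block basic helix-loop-helix factors and are targets of BMP signaling, gave the same division. ID1 was read at 84.5 CPM in the combination, 57.7 CPM with radiation alone, 83.8 CPM with exercise alone and 54.5 CPM in control, and ID3 at 79.7 CPM, 54.8 CPM, 77.7 CPM and 51.4 CPM in the same order. Log2 ratios for exercise were 0.55 and 0.62 for ID1, with and without radiation, and for radiation 0.01 and 0.08, with and without exercise. ID2 differed, with 0.53 in the combination against radiation alone and -0.20 with exercise alone. HES1, a NOTCH target, lay between 0.17 and 0.52.

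RHOB, a short-lived GTPase of endosomes and the member with the highest FPKM in control, was read at 579 CPM in the combination, 428 CPM with radiation alone, 469.7 CPM with exercise alone and 422 CPM in control. The combination was highest and the other 3 libraries were closer together. BTG1, TRIB1 and RHOB had log2 ratios of 0.40, 0.44 and 0.43 in the combination against radiation alone, and of 0.08, 0.06 and 0.15 with exercise alone. SGK1, a kinase induced by glucocorticoids and serum, had 0.51 and 0.54, and GEM, a small GTPase, 0.57 and 0.28. ARC, a synaptic early gene, had 18 reads in the combination, 5 with radiation alone, 1 with exercise alone and 9 in control.

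The exercise difference could be set against itself, since its pairs share no library. The log2 ratio was larger with radiation for 23 genes and smaller for 21, and the median difference, with radiation minus without, was 0.002, where it was -0.012 over all genes. The difference had a counting interval above 0 for 12 genes and below 0 for 10, which was not counted over all genes. With many reads such an interval leaves 0 at a small difference, so these counts are not read as a trait of the list. On the low side were EGR1 at -1.61 (-1.86 to -1.36), FOSB at -0.71 (-0.99 to -0.44), FOS at -0.59 (-0.68 to -0.50) and DUSP1 at -0.29 (-0.41 to -0.17). The other 6 below 0 were FOSL2, IER2, NR4A1, ZFP36L1, NFKBIZ and TNFAIP3. On the high side were ID2 at 0.73 (0.44 to 1.02), CCN1 at 0.46 (0.26 to 0.65), TRIB1 at 0.37 (0.24 to 0.51) and JUNB at 0.35 (0.27 to 0.43), and JUN at 0.003 was the same in both pairs. Across the 44 genes the paired log2 ratios had Pearson's r of 0.51 and Spearman's rho of 0.51, and across all genes compared 0.046 and 0.024, values that describe genes within 4 libraries.

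**Figure D4:**
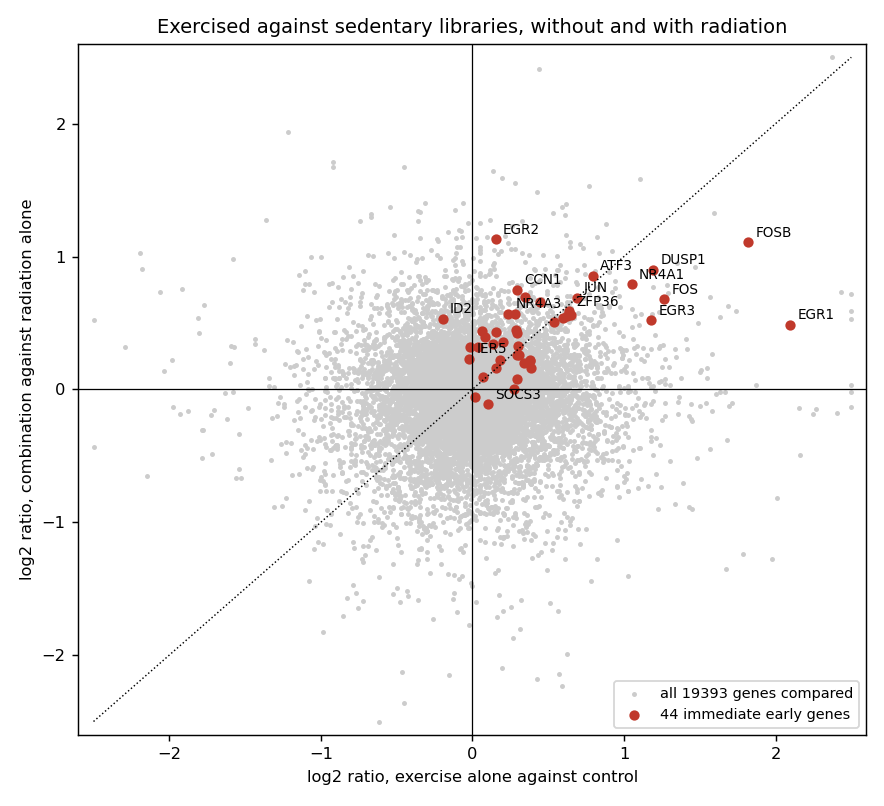
Log2 ratio of exercise alone against control (x axis) and of the combination against radiation alone (y axis) for the 44 immediate early genes (red, some named) and all 19393 genes compared (grey, values beyond 2.5 drawn at the edge); the dotted line marks equal ratios. The red points lie to the right of 0 for 41 genes and above 0 for 42, with EGR1 below the dotted line at 2.10 and 0.49.

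Genes of neighboring circuits were read from lists, which share some genes. Of 34 further early response genes compared, 28 were above 0 with exercise alone (median 0.21) and 27 in the combination against radiation alone (median 0.22). SNAI2, with 38 reads with exercise alone and 18 in control, was the one at least 2-fold higher in the first, and none was in the second. For the combination over control, BTG2, PLK2 and GADD45A were among those at least 2-fold higher. BTG2 and PLK2, both p53 targets, had log2 ratios of 1.37 and 1.39 in the combination against exercise alone, and of 0.19 and 0.005 with exercise alone against control.

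The ERK feedback list moved little. None of its 16 genes was 2-fold different in any of the 5 comparisons, and its medians were 0.07 in the combination against radiation alone and -0.01 with exercise alone. DUSP6, the ERK phosphatase, had a log2 ratio of 0.30 and 0.15 in these pairs. The 5 SRF cofactor genes had medians of 0.01 and 0.12, and 15 cytoskeletal targets of MRTF and SRF 0.15 and 0.21, with 13 and 12 above 0. Among 6 AP-1 target proteases and their inhibitor, MMP1, MMP10 and MMP9 passed 2-fold upward with exercise alone against control. MMP1 had 132 reads in the combination, 151 with radiation alone, 369 with exercise alone and 140 in control. It and MMP9 were at least 2-fold lower in the combination than with exercise alone, where TIMP1 was 2.45-fold higher. FOS and JUN were highest in the combination, and a link between their mRNA and that of these proteases was not tested.

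Of 17 NF-kappaB targets, 14 lay above 0 in the combination against radiation alone (median 0.22), and 14, not all of them the same genes, with exercise alone (median 0.11). CCL20 was at least 2-fold lower in the combination than with exercise alone and with radiation alone than in control, on 10 to 34 reads. The 20 YAP-TEAD targets had medians of 0.09 and 0.03, 6 BMP-SMAD targets 0.14 and 0.21, and 5 NOTCH targets 0.22 and 0.09. In the combination against exercise alone, ANKRD1 and IGFBP3 of the YAP-TEAD list were at least 2-fold higher and FOXF2 and FJX1 lower, while CCN1 and CCN2 had log2 ratios of 0.14 and 0.01. All 25 p53 targets lay above 0 with radiation alone against control, with a median of 1.30 against 0.064 for the immediate early genes.

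**Figure D5:**
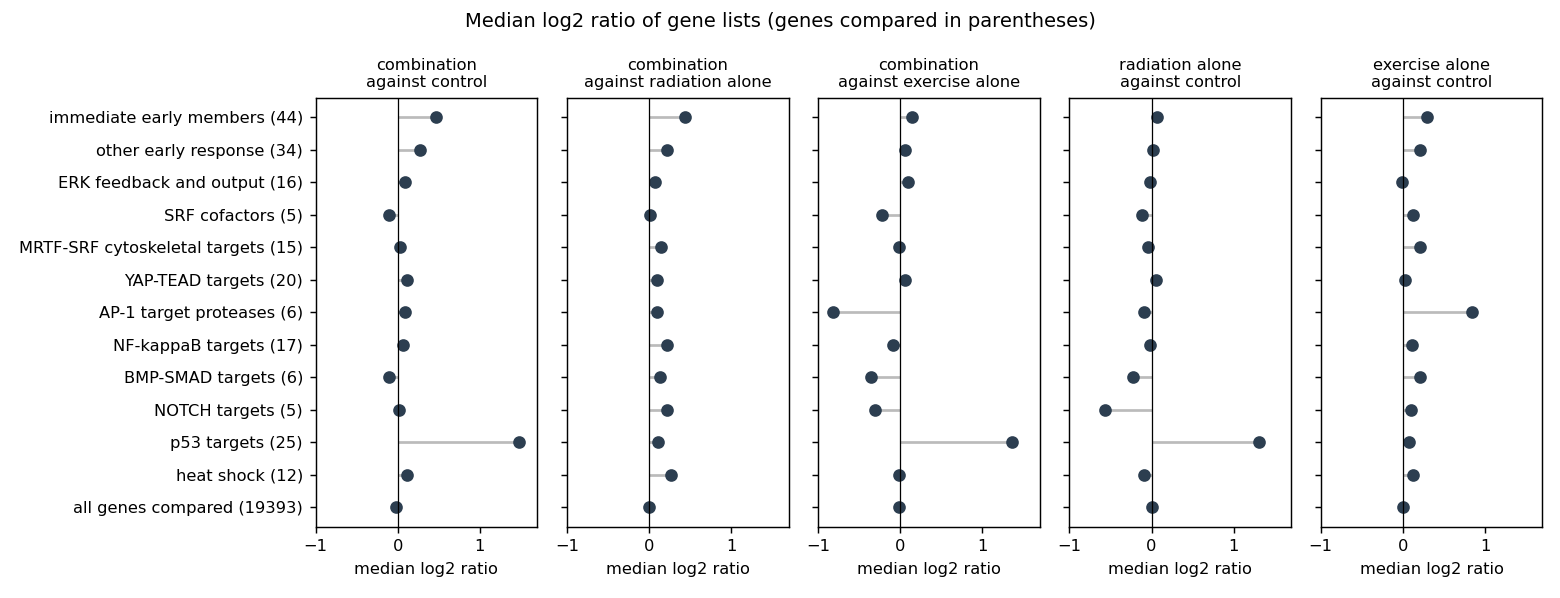
Median log2 ratio (x axis) of 12 gene lists and of all genes compared (y axis, genes compared in parentheses) in the 5 comparisons (panels). The immediate early list lies at 0.44 in the combination against radiation alone and at 0.30 with exercise alone, and the p53 list at 1.30 to 1.47 in the panels that set an irradiated library against an unirradiated one.

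Some markers moved with these differences, and their part in them was not tested. All 12 heat shock genes lay above 0 in the combination against radiation alone (median 0.26) and 11 of 12 with exercise alone (median 0.13), with summed levels of 3549 CPM in the combination, 2877 CPM with radiation alone, 3536 CPM with exercise alone and 3204 CPM in control. The 14 macrophage and neutrophil genes summed to 500.5 CPM in the combination, 436 CPM with radiation alone, 369 CPM with exercise alone and 378 CPM in control. CD163, one of those too sparse to be compared, had 7, 3, 0 and 0 reads in that order, and the other sparse ones are not given. Of the 7 genes compared, 6 lay above 0 in the combination against radiation alone and 5 with exercise alone (medians 0.16 and 0.21). LYZ, CD68 and CD14 were at least 2-fold higher in the combination than in control (2.27% of all genes passed), and ITGAM was lower, at a log2 ratio of -0.20. The 12 fibroblast genes summed to 208 CPM in the combination, 253 CPM with radiation alone, 379 CPM with exercise alone and 372 CPM in control, and 11 endothelial genes to 31.7 to 37.6 CPM. For 8 keratinocyte genes the sums were 94.0, 91.4, 129 and 117 CPM, in the order given for fibroblast genes. The sums of skeletal muscle genes given above were close between the exercised and sedentary library of each pair. By gene, 7 of 13 passed 2-fold upward with exercise alone over control (median 1.08), where 0.83% of all genes did. In the combination over radiation alone 1 did (median 0.09, 0.418% of all genes). This was MYH7, with 96 reads in the combination and 7 with radiation alone. More passed with radiation: 8 with radiation alone over control (median 2.42, 1.89% of all genes) and 9 in the combination over exercise alone (median 2.13, 2.92%). The minimum mean was taken over all libraries, so a muscle gene high with radiation could be compared with few reads elsewhere. Muscle ratios of exercise alone over control may rest on such reads. All 15 muscle genes summed to 1463 reads with exercise alone and 1542 in control.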

How the data were processed

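RNA of A549 xenografts was sequenced as polyA-selected, stranded, paired reads of 100 nt. The authors trimmed adapters and poor bases, used Bowtie2 2.3.4.1 with GRCh38 for alignment and featureCounts 1.6.0 for counting per gene. They deposited read counts, not normalized, and FPKM values for 38137 genes. The authors' FPKM divide by the gene span, introns included, for nearly all members. Bowtie2 makes no spliced alignments, and reads that span a junction may go uncounted. How mouse reads and strand were handled is not stated by labels or methods.

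TMM factors (edgeR 4.0.16, R 4.3.3) came from the 19393 genes whose count averaged 20 or more, and log2 ratios used a prior of 0.5 counts. Folds are ratios of CPM, with exact Clopper-Pearson 95% intervals. Calls followed the 2-fold threshold of the study, with no test. Calling was tried on simulated counts that held counting error only, so it says nothing of the spread between tumors. Python used scipy 1.17.1, pandas 2.3.3 and matplotlib 3.10.9. Intervals for differences of log2 ratios came from Poisson counts. Coordinates are from RefSeq (GRCh38.p14).

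The members, the 18 other lists and their roles were chosen with earlier results of these data known. Values in all libraries are given for each member at 2-fold and for the member with the most CPM of each role, with further members named as examples after their values were seen. Alternatives were scaling by DESeq2 size factors (median-of-ratios) or total counts, a prior of 2 counts, a minimum mean of 100 or none, FPKM with 0.1 added and a 1.5-fold threshold. TMM factors from all genes were added after seeing the data. A gene of the list of further early response genes is not reported here by name.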

Additional observations from a re-analysis of the deposited data

Results flagged for a closer look

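Radiation went in opposite directions with and without exercise for 3 members whose counting intervals lay on opposite sides of 1. The log2 ratio of FOSL2 was -0.15 in the combination against exercise alone and 0.07 with radiation alone against control, where the sign is lost when scaled by total counts (-0.001). That of JUNB was 0.14 in the combination against exercise alone and -0.21 with radiation alone against control, and that of CCN1 was 0.14 and -0.32 in the same pairs. Each rests on 1 library per group, and the difference between the pairs was not tested against any spread between tumors.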

How the results depend on the processing

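With a prior of 2 counts, median-of-ratios scaling or TMM factors from all genes, counts of members at 2-fold stayed within 1.5 times their value. Each median log2 ratio then moved by no more than the counting error of the single member nearest to it. At a 1.5-fold threshold, 17 members were higher for the combination over control, 11 over radiation alone and 8 over exercise alone (1 lower), 8 with radiation alone and 12 with exercise alone against control. With no minimum count, DUSP2 and ARC entered, and 4 members passed 2-fold upward for the combination over radiation alone and 2 over exercise alone, while 1 was lower with radiation alone and 1 with exercise alone than in control. With a minimum of 100, EGR2 and EGR3 left, and 1 passed for the combination over radiation alone. With FPKM and 0.1 added, 1 passed there, and the median was 0.37. The count for the combination over control was 7 by total counts (EGR2 lost) and 6 by FPKM with 0.1 added (EGR2 and IER5 lost). That for exercise alone over control was 4 by FPKM with 0.1 added (EGR3 and NR4A1 lost). The added 0.1 was close to the FPKM of EGR2 and EGR3. The median with radiation alone against control was -0.0069 by total counts and -0.0068 by FPKM with 0.1 added, against 0.064 with TMM. Its sign therefore depends on the scaling. The median over all genes moved as well, at -0.0705 by total counts, -0.0467 by FPKM with 0.1 added and 0.0008 with TMM. No alternative changed the sign of a member at 2-fold. No paired analysis was possible because each group has 1 library, and no replicate could be left out.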
